A study of Homo sapiens with 9 samples.

Results

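Follistatin is a secreted protein that binds activin, and its gene FST is described here together with genes that encode activin subunits, related binding proteins and antagonists of bone morphogenetic proteins (BMPs). The 10 genes are FST, FSTL1, FSTL3, INHBA, INHBB, INHBE, NOG, CHRD, GREM1 and BAMBI, out of 20181 genes with a single symbol in the array annotation. FST was chosen from its higher signal after TCF7L1 siRNA in these same samples, so its difference is a description and no test is given for it. The other 9 genes, and the lists of further genes below, were chosen by function with earlier results of these data known. Each of the 10 genes had 1 probe set. The name of secreted antagonists covers only some of them, because INHBA, INHBB and INHBE encode ligand subunits and BAMBI encodes a membrane protein. In the deposited gene ontology terms, 9 of the 10 genes carried the term extracellular region, BAMBI being the exception, against 10.39% of all annotated probe sets.

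The cells were H9, a human embryonic stem cell line in wide use, and each of 9 samples, all labelled day 3, was read on 1 array. In 3 samples the cells were transfected with siRNA against TCF7L1, in 3 with a non-silencing siRNA, and 3 samples were untreated, with no siRNA. The design text gives the purpose as finding genes that TCF7L1, a DNA-binding partner of beta-catenin, may control in these cells. The labels do not say from when the days were counted, nor that replicates came from separate cultures, so p-values measure only the spread between these samples.

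Activins are dimers of inhibin beta subunits that signal through activin receptors and SMAD2 and SMAD3, and activin A is commonly used to keep human embryonic stem cells pluripotent. Follistatin wraps around the activin dimer and keeps it from its receptors. Noggin, chordin and gremlin 1 bind BMP ligands in a comparable way, and BMP signalling through SMAD1 and SMAD5 drives differentiation of these cells.

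Signals of TCF7L1 were 388.8, 345.8 and 352 in TCF7L1 siRNA samples, against 1709, 1703 and 1625 in non-silencing samples and 1473, 1842 and 1667 in untreated samples. The difference was -2.17 (SE 0.10, adjusted p = 7.26e-06 by limma) against the non-silencing siRNA. All 12 stem cell markers examined, among them SOX2 and LIN28A, lay above the array median on all 9 arrays, and their summed signal was 32430 to 35100 in TCF7L1 siRNA samples, 32520 to 32990 in non-silencing samples and 32420 to 34310 in untreated samples. The arrays differed in the spread of their signals. The interquartile range of log2 signals was 3.22, 2.95 and 3.1 in TCF7L1 siRNA samples, 3.28, 3.08 and 2.95 in non-silencing samples and 3.16, 3.26 and 3.2 in untreated samples, in replicate order.

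The promoter of FST is shown because FST differed most among the members, and those of INHBA and GREM1 because they alone among the members held the core letters of the TCF/LEF motif. The letters searched were CTTTG and its reverse complement CAAAG, which cover both strands, in windows from 250 bases before to 50 bases after the start of the gene. The sequences and starts are those of RefSeq on build GRCh38.p14, and each is written on the strand of the gene with the match in capitals.

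FST, chr5:53480379-53480678, plus strand: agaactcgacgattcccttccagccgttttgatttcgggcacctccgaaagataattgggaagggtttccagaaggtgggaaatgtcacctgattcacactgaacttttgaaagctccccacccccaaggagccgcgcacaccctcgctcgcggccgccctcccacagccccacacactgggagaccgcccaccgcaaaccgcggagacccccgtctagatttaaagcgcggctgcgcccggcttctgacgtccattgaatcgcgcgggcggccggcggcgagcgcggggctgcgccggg

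INHBA, chr7:41703041-41703340, minus strand: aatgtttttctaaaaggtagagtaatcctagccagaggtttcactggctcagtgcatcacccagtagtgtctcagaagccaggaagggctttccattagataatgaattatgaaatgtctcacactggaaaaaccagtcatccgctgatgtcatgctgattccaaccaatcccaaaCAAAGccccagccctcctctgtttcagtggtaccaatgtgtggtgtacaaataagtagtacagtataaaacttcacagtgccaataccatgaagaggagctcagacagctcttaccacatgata

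GREM1, chr15:32717754-32718053, plus strand: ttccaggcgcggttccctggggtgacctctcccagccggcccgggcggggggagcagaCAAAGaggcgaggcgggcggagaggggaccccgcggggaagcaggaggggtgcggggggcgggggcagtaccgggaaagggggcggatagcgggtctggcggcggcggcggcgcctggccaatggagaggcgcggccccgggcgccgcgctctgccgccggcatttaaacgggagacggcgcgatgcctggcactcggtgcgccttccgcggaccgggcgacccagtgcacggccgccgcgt

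The window of FST held neither CTTTG nor CAAAG. INHBA held CAAAG from 74 to 70 bases before its start and GREM1 from 192 to 188 bases before the start shown, the first of 2 starts in the table. Of 8 members with a window in the table, these 2 held the letters, while 47.5% of 35116 windows of the same length did. The windows covered only 300 bases, and NOG and INHBE had no entry.

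FST had higher signals after TCF7L1 siRNA. Its signals were 306.5, 277.5 and 393.1 in TCF7L1 siRNA samples, against 130.7, 158.3 and 120.9 in non-silencing samples and 142.4, 163.5 and 136.9 in untreated samples. Every sample given TCF7L1 siRNA lay above all 6 other samples, and the 2 control groups overlapped. The means were 325.7 ± 60.2 in TCF7L1 siRNA samples, 136.6 ± 19.4 in non-silencing samples and 147.6 ± 14 in untreated samples (SD, n = 3 each). On the log2 scale, after 16 was added to each signal, the difference was 1.16 (SE 0.14, 2.23-fold) against the non-silencing siRNA and 1.05 (SE 0.14, 2.07-fold) against no siRNA. Both differences use the same 3 arrays of TCF7L1 siRNA and are not independent of each other. The rank of FST among all probe sets of an array lay between the 51.6 and the 74.5 percentile, so the gene was above the array median on all 9 arrays. In bulk samples, more cells that express FST cannot be told apart from more FST transcript per cell.

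FST was lowest within its group on the 2 narrowest arrays, replicate 2 of TCF7L1 siRNA and replicate 3 of the non-silencing siRNA, as was INHBE. With array spread as a covariate the difference of FST was 1.16 (SE 0.13) against the non-silencing siRNA and 1.101 (SE 0.142) against no siRNA. The comparison that did not choose FST is that of the controls, where the non-silencing siRNA differed from no siRNA by -0.10 (SE 0.14, adjusted p = 0.931 by limma, 95% interval -0.41 to 0.20).

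**Figure D1:**
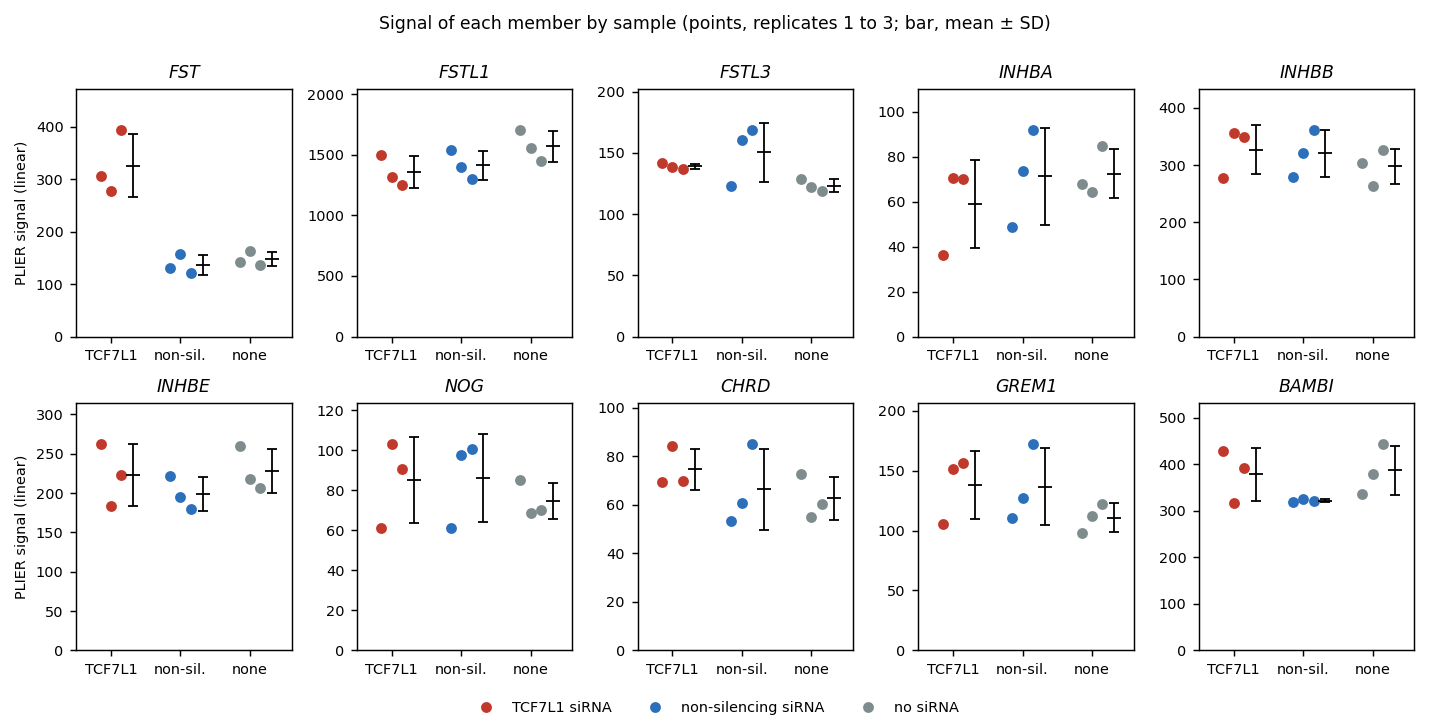
Linear PLIER signal (y axes, from 0) of the 10 genes in the 3 samples of each group, TCF7L1 siRNA at left, then non-silencing siRNA and no siRNA, with the mean ± SD (n = 3) beside the points. FST is the gene whose TCF7L1 siRNA samples (277.5 to 393.1) lie clear of all others (120.9 to 163.5), while the groups of INHBA, INHBB, INHBE, NOG, CHRD and GREM1 overlap.

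FST lies on the plus strand of chromosome 5, at 52776417 to 52781943 on build GRCh37, and its probe set of 25 probes spans the gene, so that splice forms were not measured apart. Its nearest neighbours on each side had smaller differences. MOCS2, which encodes subunits of molybdopterin synthase and lies 370.8 kb away on the minus strand, had 336.9 ± 22 in TCF7L1 siRNA samples and 353.6 ± 42.1 in non-silencing samples (SD, n = 3 each). Its difference was -0.06 (SE 0.11, adjusted p = 1 by limma). NDUFS4, a subunit gene of mitochondrial complex I that lies 74.5 kb away on the plus strand, had 524.2 ± 57.6 in TCF7L1 siRNA samples and 472.1 ± 99.5 in non-silencing samples, a difference of 0.16 (SE 0.14, adjusted p = 1 by limma). The groups overlapped for both neighbours.

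Over the 9 arrays, the 5 genes whose log2 signals followed FST most closely, among 19488 probe sets with a single symbol, were VCAN (Pearson r = 0.981), PHLDB2 (0.969), AUTS2 (0.968), NODAL (0.966) and DACT1 (0.960). These correlations describe the likeness of 9 values and share the difference between the groups. VCAN, the gene of the matrix proteoglycan versican, had 2485 ± 117 in TCF7L1 siRNA samples, 1758 ± 104 in non-silencing samples and 1724 ± 83.5 in untreated samples (SD, n = 3 each). PHLDB2 had 344.3 ± 39.3 in TCF7L1 siRNA samples, 235.8 ± 20.8 in non-silencing samples and 250.4 ± 19 in untreated samples. AUTS2 had 599.9 ± 50.8 in TCF7L1 siRNA samples, 456.8 ± 33 in non-silencing samples and 461.7 ± 18.6 in untreated samples. The log2 difference against the non-silencing siRNA was 0.50 for VCAN, 0.51 for PHLDB2 and 0.38 for AUTS2, each smaller than that of FST. DACT1, which encodes a regulator of Wnt and Nodal signalling, had 561.2 ± 44.3 in TCF7L1 siRNA samples, 180.1 ± 13.9 in non-silencing samples and 185.1 ± 12.5 in untreated samples, a difference of 1.56. The values of NODAL are given with the other ligand genes. Among the other members the r with FST ran from -0.454 (FSTL1) to 0.331 (BAMBI).

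None of the other 9 genes passed the threshold of an adjusted p under 0.05 in any comparison. Between TCF7L1 siRNA and the non-silencing siRNA, 0 of the 9 passed by limma, where 0.0263% of 22784 tested probe sets did (0.0219% higher and 0.00439% lower), and 0 of the 9 had an unadjusted p under 0.05, where 2.58% of all did. Their differences ran from -0.23 (INHBA) to 0.22 (BAMBI), 5 of 9 lay above 0 against 47.8% of all tested probe sets, and the median was 0.02 against -0.005 for all. The groups overlapped in all 9, whereas 4.99% of tested probe sets showed a complete separation. The 95% intervals of the 9 fold changes lay within 0.611 (INHBA, low end) and 1.41 (BAMBI, high end), and the adjusted p was 1 for each. All 10 genes lay above the 25th percentile on all 9 arrays, so every one was tested.

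**Figure D2:**
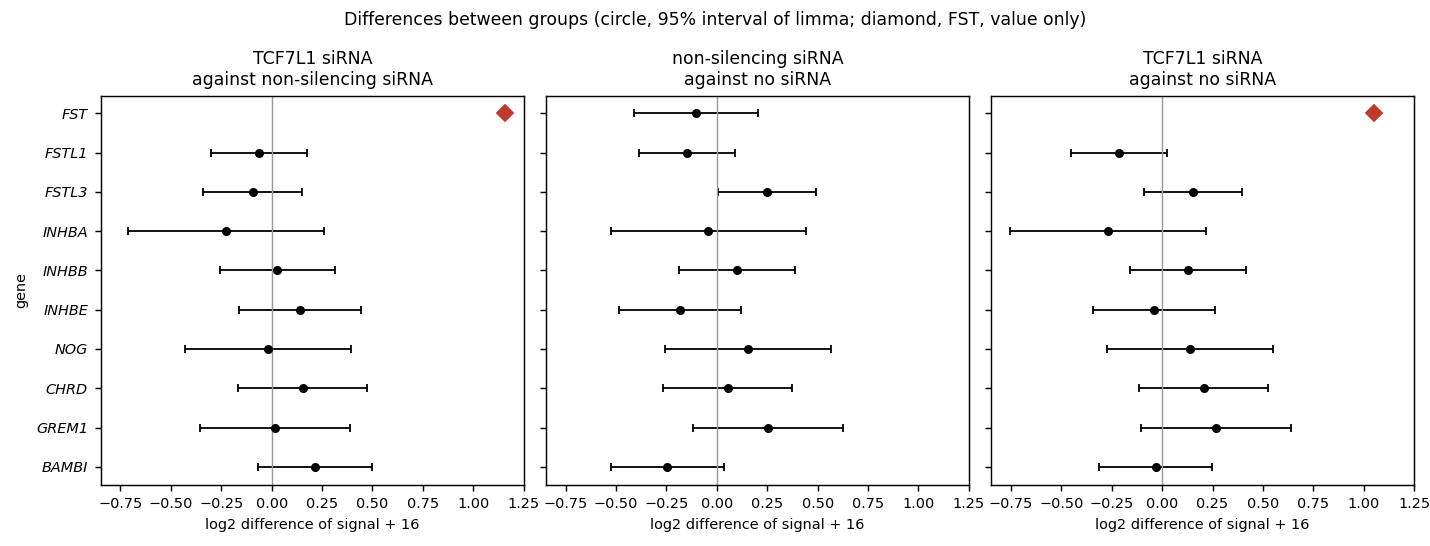
Log2 difference of signal + 16 (x axis) for each gene (rows) in the 3 comparisons. Circles with bars are limma estimates with 95% intervals. Diamonds mark the 2 differences of FST that chose it (1.16 and 1.05), which carry no test. For the other 9 genes the interval includes 0 except for FSTL3 between the 2 controls (0.004 to 0.49, adjusted p = 0.927).

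The follistatin relatives showed no difference like that of FST. FSTL3 (chr19:676389-683392 on GRCh37, plus strand) encodes a follistatin-like protein that also binds activin. FST and FSTL3 were the 2 members with the deposited term activin binding, which 12 of 18528 annotated probe sets carried. Its signals were 141.6, 138.3 and 137.2 in TCF7L1 siRNA samples, against 123.3, 160.4 and 168.5 in non-silencing samples and 128.8, 122.4 and 119 in untreated samples. The TCF7L1 siRNA values lay between those of the non-silencing samples, and lay above all 3 untreated samples. The difference was -0.09 (SE 0.11, 95% interval -0.34 to 0.15) against the non-silencing siRNA and 0.15 (SE 0.11, adjusted p = 0.691 by limma) against no siRNA.

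FSTL1 (chr3:120113126-120169863, minus strand) encodes a secreted glycoprotein with a follistatin-like domain that is more distant in function. Its signals were 1501, 1312 and 1248 in TCF7L1 siRNA samples, against 1539, 1397 and 1302 in non-silencing samples and 1701, 1556 and 1450 in untreated samples. The groups overlapped, with the samples lacking siRNA highest on average. FSTL1 differed by -0.06 (SE 0.11) against the non-silencing siRNA and by -0.21 (SE 0.11, adjusted p = 0.662 by limma) against no siRNA.

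Among the activin subunit genes, INHBB was above the array median throughout and INHBA below it throughout. INHBA (chr7:41728601-41742706, minus strand) encodes the beta A subunit of activin A. Its signals were 36.2, 70.6 and 70 in TCF7L1 siRNA samples, against 48.5, 73.5 and 91.6 in non-silencing samples and 67.8, 64.4 and 84.7 in untreated samples. The low values were those of replicate 1 in both siRNA groups, and the groups overlapped. INHBA had the widest spread of the 10 genes, with a coefficient of variation of 33.4% in TCF7L1 siRNA samples, 30.4% in non-silencing samples and 15.1% in untreated samples. Its difference was -0.23 (SE 0.22, adjusted p = 1 by limma) against the non-silencing siRNA and -0.27 (SE 0.22, adjusted p = 0.713) against no siRNA. With array spread as a covariate the second difference was -0.53 (SE 0.13, unadjusted p = 0.00258, adjusted p = 0.292 by limma), which did not pass.

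INHBB (chr2:121102999-121108989, plus strand) encodes the beta B subunit of activin B. Its signals were 277.6, 355.5 and 348.6 in TCF7L1 siRNA samples, against 278.7, 321.4 and 360.8 in non-silencing samples and 302.9, 264 and 325.8 in untreated samples. These ranges overlapped almost fully, with a difference of 0.03 (SE 0.13, 95% interval of the fold 0.836 to 1.24) against the non-silencing siRNA. INHBE (chr12:57849096-57851791, plus strand) encodes the beta E subunit, known mainly from liver. Its signals were 262.1, 183.1 and 222.5 in TCF7L1 siRNA samples, against 221.6, 195.5 and 179.3 in non-silencing samples and 259.5, 217.7 and 206.9 in untreated samples. The groups overlapped, and the difference was 0.14 (SE 0.14, 95% interval of the fold 0.895 to 1.36) against the non-silencing siRNA.

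The BMP antagonist genes NOG, CHRD and GREM1 likewise overlapped between groups. Together with FSTL3 they carried the deposited term negative regulation of BMP signaling pathway, which 21 annotated probe sets held in all. NOG (chr17:54671275-54672600, plus strand), the gene of noggin, had 61.3, 103.1 and 90.7 in TCF7L1 siRNA samples, against 61, 97.5 and 100.6 in non-silencing samples and 84.9, 68.7 and 70.2 in untreated samples. The siRNA groups overlapped almost fully, and the difference was -0.02 (SE 0.19). CHRD (chr3:184097861-184107617, plus strand), the gene of chordin, had 69.5, 84.3 and 69.9 in TCF7L1 siRNA samples, against 53.1, 60.8 and 85 in non-silencing samples and 72.5, 54.9 and 60.3 in untreated samples. The highest single value of CHRD was in a non-silencing sample, and the difference was 0.15 (SE 0.15) against the non-silencing siRNA. NOG and CHRD lay below the array median on all 9 arrays, so they were measured at the dim side of the scale.

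GREM1 (chr15:33010196-33026866, plus strand), the gene of gremlin 1, had 105.9, 151.8 and 156.8 in TCF7L1 siRNA samples, against 110.4, 127.4 and 172.2 in non-silencing samples and 98.4, 112 and 122.1 in untreated samples. The difference was 0.02 (SE 0.17) against the non-silencing siRNA and 0.27 (SE 0.17, adjusted p = 0.676 by limma) against no siRNA. The siRNA groups overlapped, and the highest value of each lay above all untreated samples. With array spread as a covariate the difference was -0.003 (SE 0.12) against the non-silencing siRNA and 0.10 (SE 0.13) against no siRNA.

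BAMBI (chr10:28966271-28972120, plus strand) encodes a membrane pseudoreceptor that lacks a kinase domain and dampens BMP and activin signalling, and it is known as a Wnt target. Its signals were 428.9, 316.7 and 391.4 in TCF7L1 siRNA samples, against 318.8, 324.7 and 321.9 in non-silencing samples and 337.1, 380.3 and 443.7 in untreated samples. The non-silencing samples sat in a narrow band, below all 3 untreated samples, while the TCF7L1 siRNA samples spanned both. The difference was 0.22 (SE 0.13, 95% interval of the fold 0.956 to 1.41) against the non-silencing siRNA and -0.03 (SE 0.13) against no siRNA.

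The 2 control groups were also compared, which asks how non-silencing samples differed from cells that received no siRNA. Of the 10 genes 0 passed by limma, where 0% of tested probe sets passed. FSTL3 was the 1 gene with an unadjusted p under 0.05, where 2.41% of tested probe sets had one. Without FST, 5 of 9 differences lay above 0, against 46.3% of all tested probe sets. FSTL3 had 150.8 ± 24.1 in non-silencing samples and 123.4 ± 5 in untreated samples (SD, n = 3 each), a difference of 0.25 (SE 0.11, unadjusted p = 0.0467, adjusted p = 0.927 by limma). With array spread as a covariate the difference of FSTL3 was 0.18 (SE 0.09, unadjusted p = 0.0789 by limma), no longer under 0.05. INHBA differed by -0.04 (SE 0.22) between the controls, and by -0.28 (SE 0.13, unadjusted p = 0.0617, adjusted p = 0.999) with that covariate. BAMBI had 321.8 ± 2.94 in non-silencing samples and 387 ± 53.6 in untreated samples, a difference of -0.25 (SE 0.13, adjusted p = 0.927). BAMBI was the 1 member whose control groups did not overlap, and 4.39% of tested probe sets were likewise lower in every non-silencing sample. Against no siRNA, 0 of the 9 genes other than FST passed in samples given TCF7L1 siRNA, where 0.0527% of tested probe sets did (0.0307% higher). Here 0 of the 9 had an unadjusted p under 0.05, where 7.26% of all did, and 5 of 9 differences lay above 0, against 45.8% of all. FSTL3 was the 1 gene of the 9 whose groups did not overlap, and 6.43% of tested probe sets were likewise higher in every TCF7L1 siRNA sample.

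Within the groups several members moved together with the array. In both siRNA groups, replicate 1 held the lowest signal of 5 genes (INHBA, INHBB, NOG, CHRD and GREM1) and the highest of FSTL1 and INHBE. The replicate 1 arrays had the widest spread of their groups, 3.22 in TCF7L1 siRNA samples and 3.28 in non-silencing samples. On the narrowest non-silencing array, replicate 3, 6 genes had their highest value of the group. The SE of NOG against the non-silencing siRNA was 0.19 without and 0.09 with array spread as a covariate.

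**Figure D3:**
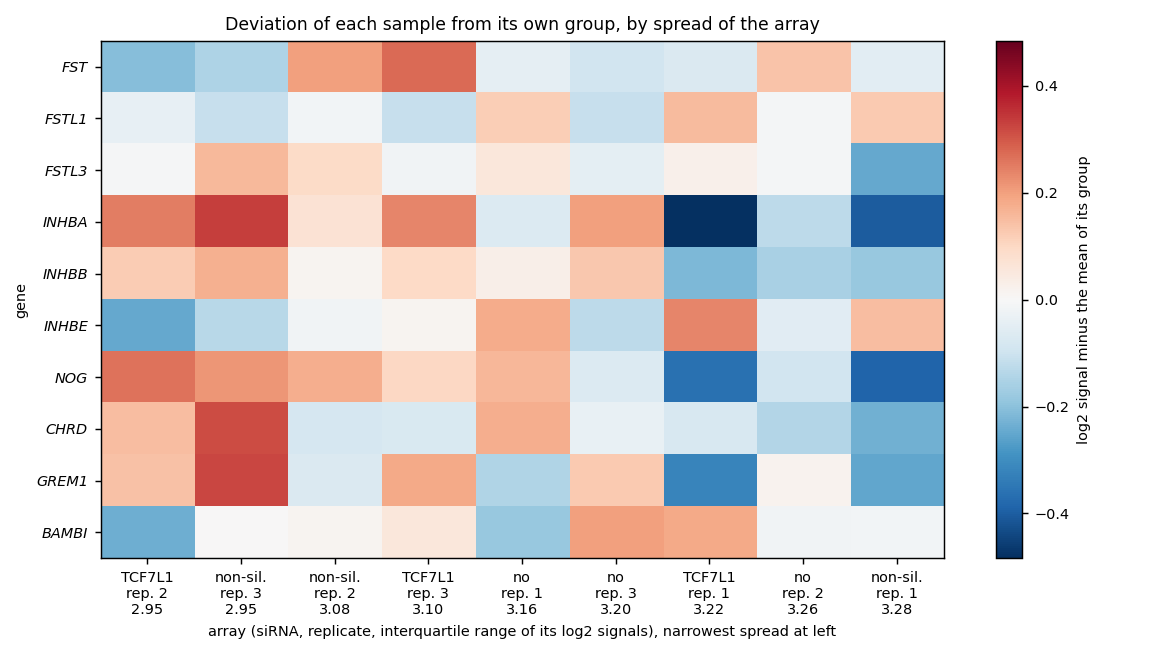
Log2 signal + 16 minus the mean of its own group (colour, red above and blue below) for each gene (rows) on each array (columns), from the narrowest spread at left (2.95) to the widest at right (3.28). INHBA, INHBB, NOG, CHRD and GREM1 are blue on the replicate 1 arrays of both siRNA groups and red on the 2 narrowest arrays. FST, FSTL1 and INHBE are blue on both of the narrowest arrays.

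In the surrounding pathway, 1 ligand gene rose and the other groups of genes held no call between TCF7L1 siRNA and the non-silencing siRNA. Of 8 tested genes of activin, Nodal and related ligands outside the members, 1 rose by limma and 0 fell, where 0.0263% of all tested probe sets passed. The median difference was 0.11, against -0.005 over all tested probe sets. NODAL and LEFTY2 were the 2 with an unadjusted p under 0.05, against 2.58% of all tested probe sets. NODAL, which signals through the activin receptors, had 95.5 ± 0.201 in TCF7L1 siRNA samples, 33.3 ± 3.59 in non-silencing samples and 35.2 ± 3.61 in untreated samples (SD, n = 3 each). Its difference against the non-silencing siRNA was 1.18 (SE 0.09, adjusted p = 0.00061 by limma). The size depended on the number added to this dim gene's signals, with a difference of 1.498 after adding 1 and 0.71 after adding 64. NODAL also rose against no siRNA (1.13, SE 0.09, adjusted p = 0.000983). The Nodal antagonist gene LEFTY1 had 258 ± 9.89 in TCF7L1 siRNA samples and 214 ± 9.64 in non-silencing samples (0.25, SE 0.12, adjusted p = 1). Untreated samples had 185.5 ± 31.9 for LEFTY1, a difference of 0.46 (SE 0.12, adjusted p = 0.481 by limma) against no siRNA. LEFTY2, a near copy of LEFTY1 with which it may share probe signal, had 305 ± 16 in TCF7L1 siRNA samples, 253.6 ± 11.3 in non-silencing samples and 166.7 ± 25.1 in untreated samples. It rose against no siRNA (0.82, SE 0.11, adjusted p = 0.0303 by limma), a call that 9 of 19 alternative settings did not keep (adjusted p up to 0.207). Against the non-silencing siRNA the difference of LEFTY2 was 0.25 (SE 0.11, adjusted p = 1). Between the controls 0 genes of the 5 pathway lists passed by limma, where 0% of tested probe sets did. LEFTY2 (0.57, SE 0.11, adjusted p = 0.927) was the 1 gene of these lists at an unadjusted p under 0.05, against 2.41% of tested probe sets. Its unadjusted p (0.000288 by limma) was the lowest of all tested probe sets between the controls, and its control groups did not overlap. The non-silencing samples thus already lay above the untreated samples for LEFTY2.

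Of 13 receptors and co-receptors 0 rose and 0 fell by limma, and the median difference was 0.03. An unadjusted p under 0.05 was seen for 2 of them, against 2.58% of all tested probe sets. The largest differences were those of the repulsive guidance molecule genes, which encode BMP co-receptors. RGMB had 278.6 ± 34.9 in TCF7L1 siRNA samples and 189.3 ± 28.2 in non-silencing samples (0.52, SE 0.13, adjusted p = 0.814 by limma). RGMA had 435.4 ± 62.2 in TCF7L1 siRNA samples and 342.3 ± 24.3 in non-silencing samples (0.33, SE 0.12, adjusted p = 1). Neither passed.

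Of 14 tested genes of other secreted antagonists and modulators 0 rose and 0 fell by limma, and the median difference was 0.01. An unadjusted p under 0.05 was seen for 0 of them, against 2.58% of all tested probe sets. FSTL4, a follistatin-like gene, had the largest difference of the list at -0.33 (SE 0.16), which did not pass. The difference of FST, 1.16, was larger than that of each of these 14 genes, in a comparison that had chosen FST.

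Of 10 tested BMP ligand genes 0 rose and 0 fell by limma, and the median difference was -0.01. An unadjusted p under 0.05 was seen for 1 of them, against 2.58% of all tested probe sets. BMP4, a ligand bound by noggin, chordin and gremlin 1, had 272.9 ± 19.6 in TCF7L1 siRNA samples and 177.3 ± 7.25 in non-silencing samples (0.58, SE 0.11, adjusted p = 0.228), and BMP6 was at -0.13 (SE 0.09). Untreated samples had 198.9 ± 25.15 for BMP4, a difference of 0.43 (SE 0.11, adjusted p = 0.478 by limma) against no siRNA. Between TCF7L1 siRNA and the non-silencing siRNA the BMP4 groups did not overlap, as was so for 4.99% of all tested probe sets. The difference did not pass. In this comparison the groups of NODAL, LEFTY1, LEFTY2, RGMB, PMEPA1 and the feedback gene SKIL did not overlap either. Of 15 SMAD and feedback genes 0 rose and 0 fell by limma, and the median difference was 0.07. PMEPA1 and ID1 were the 2 with an unadjusted p under 0.05, against 2.58% of all tested probe sets. PMEPA1, a feedback inhibitor gene of TGF-beta and activin signalling named after its values were seen, had 188.6 ± 5.91 in TCF7L1 siRNA samples and 154.9 ± 6.42 in non-silencing samples (0.26, SE 0.10, unadjusted p = 0.022, adjusted p = 1 by limma). Untreated samples had 146.2 ± 16.8 for PMEPA1, a difference of 0.34 (SE 0.10, adjusted p = 0.556 by limma) against no siRNA. Against the non-silencing siRNA the largest differences were those of the inhibitory SMAD gene SMAD7 (0.33, SE 0.15) and the BMP target ID1 (0.30, SE 0.14), each at adjusted p = 1.

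**Figure D4:**
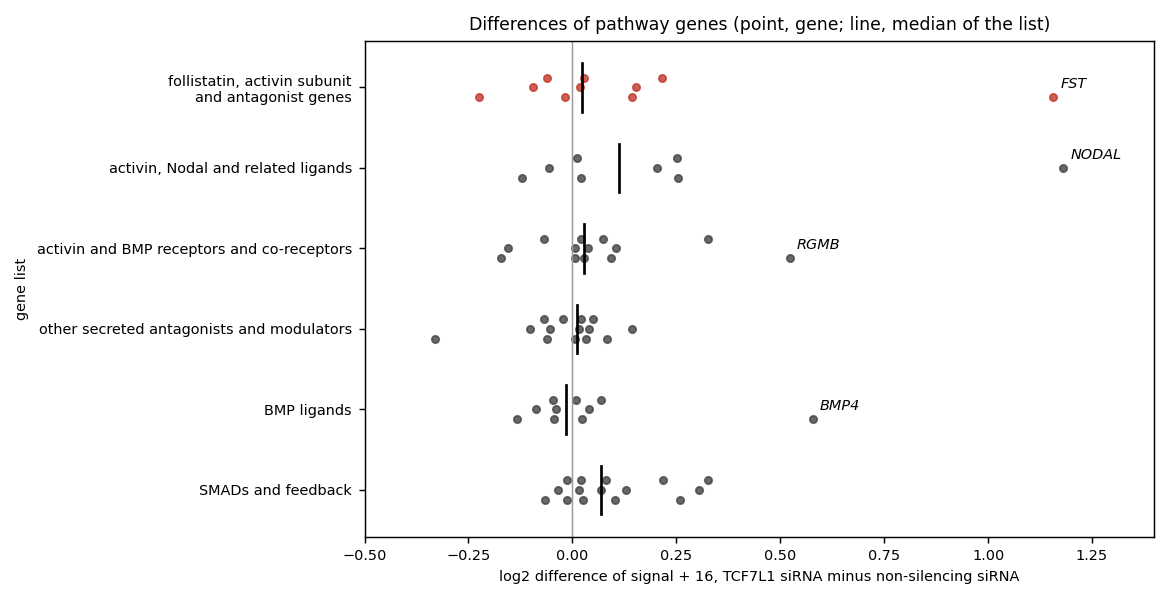
Log2 difference of signal + 16 between TCF7L1 siRNA and the non-silencing siRNA (x axis) for the 10 members (red, top row) and the tested genes of 5 pathway lists (grey rows), with a vertical line at each median. FST (1.16) and NODAL (1.18) lie far to the right, BMP4 (0.58) and RGMB (0.52) follow without passing the threshold, and the other genes lie between -0.33 and 0.33.

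Markers of other cell types were examined because FST, GREM1 and INHBA are also expressed by fibroblasts and other differentiated cells. The summed signal of 10 fibroblast markers was 2915 to 3272 in TCF7L1 siRNA samples, 3278 to 3653 in non-silencing samples and 3527 to 3671 in untreated samples, so that the highest sum in TCF7L1 siRNA samples lay just under the lowest in non-silencing samples. Of 8 tested fibroblast markers, 3 had a difference above 0 between TCF7L1 siRNA and the non-silencing siRNA, against 47.8% of all tested probe sets. These 3 were small (COL3A1 0.06, PDGFRB 0.002 and POSTN 0.06), 5 lay below 0, and the median was -0.13. Against no siRNA 1 of the 8 lay above 0 (COL3A1), with a median of -0.17. There COL1A1, COL1A2 and THY1 were the 3 with an unadjusted p under 0.05 by limma, against 7.26% of all tested probe sets. The genes named here were chosen after their values were seen. THY1, a surface protein also made by embryonic stem cells, averaged 1946 in TCF7L1 siRNA samples, 2162 in non-silencing samples and 2305 in untreated samples, and makes up most of the sum. Against the non-silencing siRNA, COL1A1 had the lowest difference (-0.46, SE 0.09, adjusted p = 0.296 by limma), and COL3A1 the highest (0.06, SE 0.15, adjusted p = 1). No fibroblast marker was listed at 0, 3 of 10 lay above the array median on all arrays, and LUM and DCN were too dim to be tested. The sum of 6 endoderm markers was 659.3 to 826.4 in TCF7L1 siRNA samples, 562.3 to 835.5 in non-silencing samples and 584.4 to 628.9 in untreated samples. The sum of 6 mesoderm markers was 711.7 to 920.7 in TCF7L1 siRNA samples, 666.4 to 890.7 in non-silencing samples and 686.6 to 745.1 in untreated samples. In both lists the siRNA groups overlapped, but every endoderm sum in TCF7L1 siRNA samples lay above every untreated one. Of 5 tested endoderm genes 5 had a difference above 0 between TCF7L1 siRNA and no siRNA, with a median of 0.27. Over all tested probe sets 45.8% lay above 0. The non-silencing siRNA against no siRNA likewise gave 5 of 5 endoderm genes above 0, with a median of 0.24. Of 6 mesoderm genes 6 lay above 0 between TCF7L1 siRNA and no siRNA, with a median of 0.11. Between the controls 5 of these 6 did, with a median of 0.07. FOXA2 averaged 131.7 ± 24.8 in TCF7L1 siRNA samples, 100.5 ± 24.9 in non-silencing samples and 80.8 ± 5.52 in untreated samples (SD, n = 3 each). Its difference was 0.60 (SE 0.16, adjusted p = 0.545 by limma) against no siRNA. The sum of 6 neural markers was 2162 to 2324 in TCF7L1 siRNA samples, 2220 to 2330 in non-silencing samples and 2050 to 2402 in untreated samples. The sum of 6 trophoblast and amnion markers was 529.6 to 631 in TCF7L1 siRNA samples, 538.8 to 674.1 in non-silencing samples and 576.3 to 591.5 in untreated samples. The groups overlapped in the neural and the trophoblast and amnion lists, no marker passed in any comparison, and the part of other cell types in the values of FST was not tested.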

How the data were processed

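Total RNA of 9 H9 samples was measured on Affymetrix whole-transcript arrays. The authors deposited linear intensity values, which Expression Console 1.1.1 of Affymetrix produced by PLIER 2.0 per the submitters' processing notes; its background and normalization steps are unknown here. The 2 deposited tables held equal values (largest difference 0). Of 33297 probe sets, 4201 controls were left out of the tests. Array medians, percentiles and interquartile ranges were taken over all 33297 probe sets, controls included. Signals became log2 after 16 was added, which understates changes of dim genes. Tested probe sets, 22784 in number, lay above the 25th percentile of the array on at least 3 arrays. One mean per group was fitted to all 9 arrays with limma 3.58.1 under R 4.3.3, two-sided, with Benjamini-Hochberg adjustment over all tested probe sets in each comparison and a threshold of 0.05. Precision is limited by the number of arrays, with a median SE of 0.119. The fitting step was tested on simulated data.

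The members and lists were chosen with earlier results of these data known. Genes named were the members, TCF7L1, the nearest neighbours of FST, the 5 genes most like FST, and in each of 5 pathway lists the genes that passed and the 2 of largest difference. One gene that this rule names is not reported here. Markers were 12 for stem cells and lists for fibroblast, endoderm, mesoderm, neural, and trophoblast and amnion cells. A list gene was represented by its brightest probe set. Of 5950 transcripts with a written GRCh37 position, 97.5% overlapped the position of their probe set. Promoters came from RefSeq by gene symbol, with 8 of 10 members matched. Alternatives were other offsets (1 and 64), quantile normalization, other filters, fits of only 2 groups, a replicate block, array spread as a covariate, the second deposited table, leaving out each sample in turn, and leaving out the 2 arrays of narrowest spread.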

Additional observations from a re-analysis of the deposited data

How the results depend on the processing

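Over 19 alternatives the difference of FST kept its direction and moved by less than the spread between samples, from 0.95 to 1.26 against the non-silencing siRNA and from 0.87 to 1.15 against no siRNA. FST was chosen for its rise in these same samples, so these ranges are a description and no test of it. No other member passed in any of 504 recomputed values (lowest adjusted p = 0.283 by limma), and 472 of them kept their sign. Some of the 19 alternatives cannot change a difference by construction, for these members or for FST. These are the other filters, the second deposited values, the replicate block and the fit of 2 groups. Leaving out a sample of the group not compared likewise leaves a difference unchanged. The 472 therefore include values whose sign could not turn. The count of probe sets past the threshold against the non-silencing siRNA was 6, and 11 with the replicate block and 25 with array spread as a covariate. Against no siRNA it was 12, and 20 with the replicate block, 24 with array spread as a covariate and 5 without the 2 arrays of narrowest spread, replicate 2 of TCF7L1 siRNA and replicate 3 of the non-silencing siRNA. Leaving out 1 sample gave 4 to 6, 0 to 0 between the controls, and 3 to 14 against no siRNA, the lowest 3 without no siRNA replicate 1 or 3 or TCF7L1 siRNA replicate 3; it was 5 without TCF7L1 siRNA replicate 1 or 2 or non-silencing replicate 2, and 6 without no siRNA replicate 2. Deviations of samples with the same replicate number correlated at -0.257 to 0.68 over 9 pairs, highest for replicate 1 of the 2 siRNA groups. Pairs of unlike number ran from -0.753 to 0.715, and not every sample correlated best with its own number. Whether samples of the same number share a batch or a pairing was not tested. The cause of these moves was not tested.

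Under alternatives chosen after the data were seen, NODAL passed in all 18 that tested it in each comparison with TCF7L1 siRNA, and BMP4 and RGMB passed in none of 19. LEFTY2 against no siRNA lost its call in 9 of 19, among them quantile normalization, the fit of 2 groups, and leaving out any TCF7L1 siRNA sample, untreated replicate 1 or 3, or non-silencing replicate 2. Signs turned only in differences that did not pass. Against the non-silencing siRNA, leaving out 1 sample gave -0.14 to 0.00068 for FSTL1, -0.43 to 0.016 for INHBA, -0.063 to 0.14 for INHBB, -0.21 to 0.16 for NOG and -0.11 to 0.18 for GREM1, and the spread covariate gave -0.0031 for GREM1. With no turn of sign, leaving out 1 sample moved the difference from -0.22 to -0.016 for FSTL3, 0.025 to 0.27 for INHBE, 0.037 to 0.31 for CHRD and 0.12 to 0.33 for BAMBI. Between the controls leaving out 1 sample gave -0.21 to 0.16 for INHBA and -0.10 to 0.17 for CHRD, and with no turn of sign -0.26 to -0.092 for INHBE and -0.34 to -0.15 for BAMBI; the spread covariate gave -0.020 for INHBB, -0.052 for NOG and -0.087 for CHRD, and CHRD was -0.10 without the 2 narrowest arrays. Against no siRNA leaving out 1 sample gave -0.16 to 0.084 for INHBE and -0.12 to 0.088 for BAMBI. There the spread covariate gave -0.0078 for INHBB, 0.080 for INHBE, -0.098 for NOG and 0.042 for BAMBI, quantile normalization 0.020 for BAMBI, and the fit without the 2 narrowest arrays 0.084 for INHBE and 0.088 for BAMBI. The filter at the array median left INHBA, NOG and CHRD untested. These 3 genes lay below the median of every array, which limits what their signals can show.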
